A study of Mus musculus with 8 samples.

Results

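Transcription factor genes of mammary basal cells, 10 in all, were followed: Trp63, Trp73, Sox9, Sox10, Tbx2, Tbx3, Runx1, Nfib, Irx4 and Barx2. They were chosen by name, as p63 with its relative p73 and factors of the basal lineage, and make up 10 of the 54837 genes in the count table. The cells came from the mammary gland of C57BL/B6 mice that received no treatment, and they were sorted by cell cycle phase. Cells in G0 rest outside the division cycle, and cells in G1 grow ahead of DNA synthesis. The 8 libraries, all of polyadenylated RNA, fall into 4 runs that each hold a G0 and a G1 library. The sources used here name neither the sorting markers nor the age of the mice, and do not say whether each run used other animals, so the spread between runs may be partly technical.

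Basal cells form the outer layer of the mammary ducts and include the contractile myoepithelial cells as well as cells able to rebuild a gland on transplantation. p63, encoded by Trp63, belongs to the p53 family and is required for stratified and glandular epithelia to form. Its short form, which lacks the N-terminal activation domain, is the one known from basal epithelial cells, where it binds p53-like sites near keratin, integrin and desmosome genes. The SOX, T-box, RUNX, nuclear factor I and homeobox proteins each bind DNA through a domain of their own and act with p63 or beside it in setting basal and luminal fate.

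For several of these genes annotated transcripts begin at sites so far apart that a count per gene can mix transcripts of different promoters. Trp63 has 2 start regions with 4 annotated transcripts each, 118153 bases apart, the upstream one for the long (TA) form and the downstream one for the short (ΔN) form, so the values below do not separate those forms. Runx1 has a distal start region with 3 annotated transcripts and a proximal one with 4, which lie 128821 bases apart. Start regions of Nfib lie up to 206434 bases from its first, those of Trp73 up to 54886 and those of Tbx3 up to 9580. Stretches upstream of both Runx1 starts are printed to show how unlike they are in sequence. They run from 250 to 76 bases before the RefSeq start on GRCm38.p6, 5′ to 3′ on the minus strand, with CG dinucleotides in capitals.
Runx1 distal, chr16:92826150-92826324: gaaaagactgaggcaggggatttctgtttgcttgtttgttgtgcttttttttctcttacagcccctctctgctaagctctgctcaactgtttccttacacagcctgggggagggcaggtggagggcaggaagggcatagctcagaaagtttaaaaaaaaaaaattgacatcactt
Runx1 proximal, chr16:92697405-92697579: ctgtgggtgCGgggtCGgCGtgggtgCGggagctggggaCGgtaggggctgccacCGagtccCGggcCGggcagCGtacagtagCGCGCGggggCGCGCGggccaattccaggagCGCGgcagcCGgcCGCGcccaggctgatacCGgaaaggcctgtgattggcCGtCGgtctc
The distal stretch holds 0 CG dinucleotides at a GC content of 45.1%, and the proximal one holds 23 at 74.9%. Over 32851 stretches at the same place before RefSeq starts, the median was 3 CG dinucleotides (quartiles 1 and 9) and a GC content of 51.4%. RefSeq promoters were matched for 3 of the 10 genes, namely Trp73, Runx1 and Irx4. Their 5 stretches of 175 bases were searched on both strands for the RUNX motif TGTGGT, the SOX motif ATTGTT, the T-box motif AGGTGT, the nuclear factor I palindrome (TTGGC and GCCAA with 5 bases between) and the p53 family half-site. None of the 5 held any of these, while 10.1%, 7.14%, 8.72%, 0.0244% and 5.16% of all stretches held them, in that order, which says only that these letters are not in these windows.

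Total counts ranged from 5868728 to 15014104 per library. The G0 library of run 4, with the lowest total, stood apart in that 39094 genes had at least 1 count, while the other 7 libraries detected 20836 to 26614. The labelled cell type was checked against 10 markers of basal mammary epithelium, all of which were measured in all 8 libraries. Krt5 stood between 1415 and 2239 CPM (counts scaled to a common library size) and Krt14 between 6650 and 9802 CPM, and the list summed to 23232 to 30483 CPM in G0 and 32229 to 36080.0 CPM in G1. The 10 luminal markers summed to 1481 to 2968 CPM in G0 and 1649 to 2634 CPM in G1, highest in both libraries of run 3. The 10 endothelial markers summed to 160.2 to 293 CPM in G0 and 29.9 to 115 CPM in G1, and 9 of them were called lower in G1 in the fit by run described next, against 0.764% of all tested genes. In the same fit 4 of 8 fibroblast markers (Col1a1, Col1a2, Lum and Pi16) were called lower, against the same 0.764%. Dcn, the most abundant of the 8, was not called and was higher in G1 in 3 of 4 runs. The 8 summed to 208, 300, 904 and 308 CPM in the G0 libraries of runs 1 to 4. In the G1 libraries they summed to 243, 320, 609 and 445 CPM, so the sum was lower in G1 in run 3 only. Of 10 basal markers 2, the contractile genes Acta2 and Cnn1, were called higher, against 0.481% of all tested genes. The part of these markers in the values of the 10 genes was not tested. In bulk samples such as these, fewer cells of a type and less RNA per cell cannot be told apart.

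The comparison of G1 with G0 asks whether RNA of these factors stands at another level in resting cells than in cells in the growth phase. Barx2 was too low to test, and none of the 9 tested genes was called different in either fit given below. Of all tested genes 0% were called with the phase alone and 1.24% with the phases compared within runs. Trp63 had nearly equal means in both phases, Sox9 and Runx1 were lower in G1 in each of the 4 runs, Tbx3 was lower in G1 in 3 of 4 runs, and Tbx2 and Irx4 were higher in G1 in 3 of 4. The G0 and G1 libraries overlapped in each of the 9 tested genes and in Barx2. They did not overlap in 2% of all tested genes, so overlap in this few genes says little about them.

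Levels in CPM are scaled by TMM, a factor that balances library composition. Tests used edgeR's quasi-likelihood test over 15192 genes with Benjamini-Hochberg adjustment at 0.05. Of the 10 genes, 9 passed the filter on low counts and were tested, and Barx2 was not. With the phase alone in the model 0 of 9 were called, against 0% of all tested genes, and 0 of 9 had an unadjusted p under 0.05, against 2.8%. All 9 had an adjusted p of 0.9999 there. The G0 and G1 libraries of a run deviated together, so a fit that takes the run as a replicate block, and so compares the phases within runs, is given beside it. In that fit 0 of 9 were called, against 1.24% of all tested genes. Split by direction, 0 of 9 were called higher, against 0.481%, and 0 lower, against 0.764%. Of the 9, 2 (Sox9 and Tbx3) had an unadjusted p under 0.05, against 12.3%. Of the 9 genes, 2 were lower in G1 in all 4 runs, against 9.46% of all tested genes, and 0 were higher in all 4 runs, against 11.3%. Each log2 fold change that follows is from the blocked fit, positive where G1 was higher, with its standard error.

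**Figure D1:**
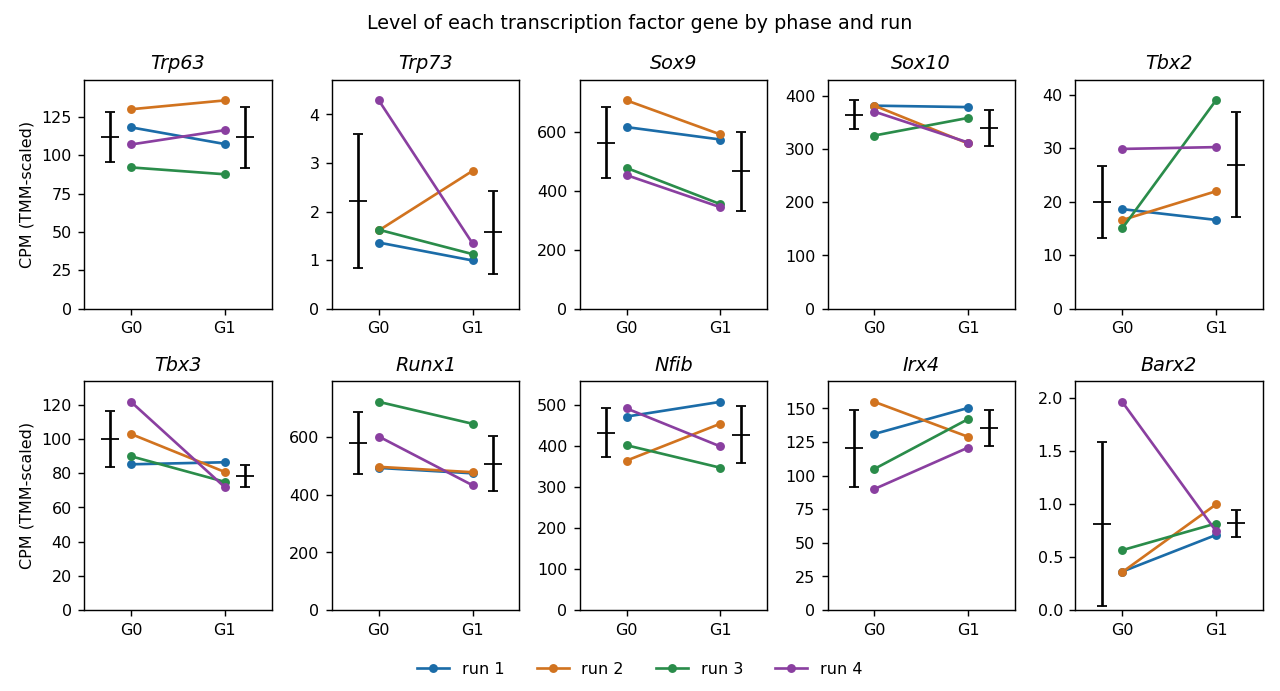
Level of each gene in TMM-scaled CPM (y axis, from 0) in G0 and G1, with 1 line per run joining its 2 libraries and bars giving the mean ± SD over 4 libraries. The Sox9 and Runx1 lines slope down in all 4 runs, the Trp63 means are 112 CPM in both phases, and the highest Trp73 and Barx2 values are 4.29 and 1.97 CPM, both in the G0 library of run 4.

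Trp63 (ENSMUSG00000022510) spans bases 25683763 to 25892102 of chromosome 16 (plus strand, GRCm38). Its G0 libraries held 118, 130.0, 92.1 and 107 CPM in runs 1 to 4, and its G1 libraries 107, 136, 87.6 and 116 CPM. Both phases were lowest in run 3 and highest in run 2, and 2 runs were higher and 2 lower in G1. The mean over 4 libraries was 112 ± 16.2 CPM (SD) for G0, and for G1 it was 112 ± 20 CPM. This gave a log2 fold change of -0.01 ± 0.11 at an adjusted p of 0.990. Its 95% confidence interval, before adjustment over all genes, ran from 0.846-fold to 1.17-fold, so a change within those bounds is not excluded.

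Trp73 (ENSMUSG00000029026) encodes p73, the p53 relative that can pair with p63. The gene spans bases 154056253 to 154140208 of chromosome 4 (minus strand) and was near the limit of detection, with 151 counts over the 8 libraries. Its G0 libraries held 1.36, 1.61, 1.63 and 4.29 CPM in runs 1 to 4, and its G1 libraries 0.992, 2.84, 1.12 and 1.34 CPM. The highest value rests on 24 counts in the G0 library of run 4. The log2 fold change was -0.41 ± 0.49 (adjusted p = 0.804), and without run 4 it was -0.03. The interval from 0.374-fold to 1.52-fold leaves room for a change in either direction. An antisense gene, Trp73os, shares 280 exon bases with Trp73 and held 5 counts in all.

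Sox9 and Sox10 encode SOX proteins of the E group, which bend DNA at their sites and are known from progenitor cells of glandular and neural crest tissue. Sox9 (ENSMUSG00000000567) spans bases 112782224 to 112787760 of chromosome 11 (plus strand). It stood at 617, 708, 479 and 454 CPM in the G0 libraries of runs 1 to 4, and at 575, 593, 356 and 345 CPM in the G1 libraries. G1 was below G0 in each run, by log2 ratios of -0.10, -0.26, -0.43 and -0.40, but the G1 libraries of runs 1 and 2 lay above the G0 libraries of runs 3 and 4. G0 averaged 565 ± 119.8 CPM and G1 467 ± 135 CPM (SD, n = 4). Its log2 fold change was -0.30 ± 0.11, a ratio of 0.815 with a 95% confidence interval from 0.701 to 0.947, at an unadjusted p of 0.00959 and an adjusted p of 0.212. By p it ranked 687 among the 15192 tested genes.

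Sox10 (ENSMUSG00000033006) spans bases 79154908 to 79165240 of chromosome 15 (minus strand). Its values were 381, 381, 325 and 369.8 CPM in G0 and 378, 310.2, 358 and 312 CPM in G1. It varied least of the 10 over the libraries, by 1.11 times between the highest and lowest run mean, with 3 runs lower and 1 higher in G1. The log2 fold change was -0.10 ± 0.11 (adjusted p = 0.778, 95% confidence interval from 0.796-fold to 1.09-fold). Sox10 also marks melanocytes. Of the melanocyte markers Dct, Tyr, Tyrp1 and Mlana were at 0 in at least 6 of the 8 libraries, Mitf and Pmel had counts in all 8, and the list of 6 summed to 4.29 to 11.4 CPM in G0 and 5.95 to 7.56 CPM in G1. Of the 6, 2 (Mitf and Pmel) were tested and 0 called, and their part in the Sox10 values was not tested.

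Tbx2 and Tbx3 encode T-box repressors, and Tbx3 is needed for the mammary bud to form. Tbx2 (ENSMUSG00000000093) spans bases 85832551 to 85841948 of chromosome 11 (plus strand). Its values were 18.6, 16.6, 15 and 29.8 CPM in G0 and 16.6, 21.9, 38.9 and 30.2 CPM in G1. The G1 library of run 3 was the highest and the G0 library of the same run the lowest, a log2 ratio of 1.37, while runs 1 and 4 gave -0.16 and 0.02. G1 over G0 was 0.41 ± 0.21 on the log2 scale (adjusted p = 0.442, 95% confidence interval from 0.985-fold to 1.80-fold), and without run 3 it was 0.08.

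Tbx3 (ENSMUSG00000018604) spans bases 119670669 to 119684724 of chromosome 5 (plus strand). It stood at 85.2, 103, 89.9 and 122 CPM in the G0 libraries of runs 1 to 4 and at 86.4, 80.7, 74.9 and 71.9 CPM in the G1 libraries. Run 1 gave nearly equal values, and in the other 3 runs G1 was lower, most in run 4 with a log2 ratio of -0.76. G0 averaged 99.9 ± 16.3 CPM and G1 78.5 ± 6.42 CPM (SD, n = 4). The fit gave a log2 fold change of -0.33 ± 0.13, a ratio of 0.794 with a 95% confidence interval from 0.661 to 0.953, at an unadjusted p of 0.0154 and an adjusted p of 0.253. Without run 4, whose G0 library stood apart, it was -0.21. The antisense gene Tbx3os1 shares 115 exon bases with Tbx3 and held 191 counts against 7529.

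Runx1 encodes a Runt-domain factor that binds DNA with its partner Cbfb and is known both from blood formation and from mammary epithelium. The gene (ENSMUSG00000022952) spans bases 92601466 to 92826149 of chromosome 16 (minus strand), and its 2 promoters were shown above. Its values were 493, 496, 722 and 601 CPM in G0 and 474, 478, 646 and 433 CPM in G1. G1 was below G0 in each run, by log2 ratios of -0.06, -0.06, -0.16 and -0.48, and run 3 was the highest in both phases. G0 averaged 578 ± 108 CPM and G1 507 ± 94.3 CPM (SD, n = 4). Its log2 fold change was -0.19 ± 0.11 (adjusted p = 0.517, 95% confidence interval from 0.754-fold to 1.02-fold). The antisense gene Gm26626 shares 106 exon bases with Runx1 and held 3253 counts against 46697. How strand was handled in the counting is not stated, so reads in that overlap could be assigned to either gene. Leukocyte markers, a list of 8, summed to 65.3 to 378 CPM in G0 and 45.3 to 394 CPM in G1. The sum was highest in both libraries of run 4, mostly through Cd74, whose G0 and G1 values there were 299 and 335 CPM. Among the G0 libraries, Lyz2 was highest in run 3, with 22.1 CPM against 16.1 CPM in run 4. Ptprc and Cd79a were nearly equal in the G0 libraries of runs 3 and 4, while Cd68, Csf1r, Cd3e and Laptm5 were higher in run 4. The part of the leukocyte markers in the Runx1 values was not tested.

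Nfib encodes nuclear factor I/B, which binds a palindrome as a dimer. The gene (ENSMUSG00000008575) spans bases 82290173 to 82705750 of chromosome 4 (minus strand). Its values were 471, 364, 401 and 491 CPM in G0 and 507, 454, 347 and 398 CPM in G1, so that runs 1 and 2 were higher and runs 3 and 4 lower in G1. Its log2 fold change was -0.02 ± 0.11 (adjusted p = 0.966, 95% confidence interval from 0.837-fold to 1.16-fold).

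Irx4 and Barx2 encode homeobox proteins, of the Iroquois and Bar families. Irx4 (ENSMUSG00000021604) spans bases 73260479 to 73269608 of chromosome 13 (plus strand). It stood at 131, 155, 105 and 90.05 CPM in G0 and at 150.3, 129, 142 and 121 CPM in G1. Run 2 was lower and the other 3 runs higher in G1, and the G1 libraries lay within the range of the G0 libraries. On the log2 scale G1 over G0 was 0.20 ± 0.12 (adjusted p = 0.572, 95% confidence interval from 0.958-fold to 1.37-fold).

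Barx2 (ENSMUSG00000032033) spans bases 31846044 to 31913462 of chromosome 9 (minus strand) and had 63 counts over the 8 libraries. Its values were 0.363, 0.358, 0.565 and 1.97 CPM in G0 and 0.709, 0.997, 0.817 and 0.747 CPM in G1. The G0 library of run 4 was the highest on 11 counts, and in the other 3 runs G1 was above G0. At 4 to 13 counts per library, too few to show less than a large change, Barx2 did not pass the filter on low counts. It was left out of both fits given above.

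**Figure D2:**
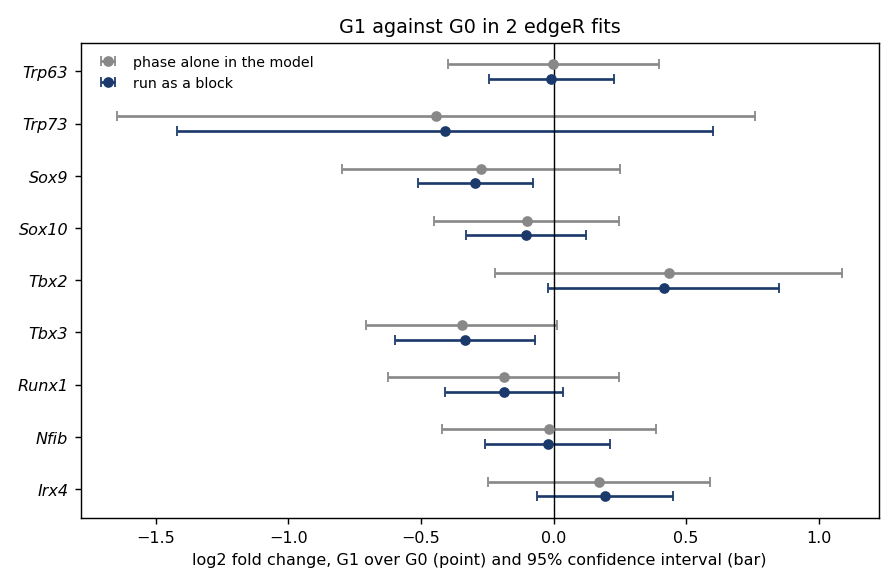
Log2 fold change of G1 over G0 (x axis) with its 95% confidence interval for the 9 tested genes, from edgeR with the phase alone (grey) and with the run as a block (blue). Every grey interval and 7 of the 9 blue ones span 0; those of Sox9 and Tbx3 lie below 0 before adjustment over all genes.

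The 10 genes differed widely in level. Between genes, levels were compared as CPM per kilobase of exon, averaged over the 8 libraries. Sox9 at 125 ± 31.2 and Sox10 at 115 ± 10.2 CPM per kilobase (SD, n = 8) were the highest, above 97.1% and 96.9% of all tested genes. Sox9 was above Sox10 in 5 of 8 libraries, so this pair did not differ beyond its spread. Irx4 at 49.1 ± 8.51 and Runx1 at 45.1 ± 8.42 CPM per kilobase followed, Irx4 above Runx1 in 6 of 8 libraries. Nfib stood at 28.7 ± 4.0 CPM per kilobase, below Runx1 in all 8. Tbx3 at 13.5 ± 2.45 and Trp63 at 13.3 ± 2.01 CPM per kilobase could not be ordered, Tbx3 being above Trp63 in 5 of 8 libraries. Trp63 was thus above 74.1% of all tested genes. Tbx2 was lower at 6.47 ± 2.37 CPM per kilobase, below Trp63 in 7 of 8 libraries. Barx2 at 0.414 ± 0.261 and Trp73 at 0.343 ± 0.202 CPM per kilobase came last, each above the other in 4 of 8 libraries. The order depended on the length used. With the longest transcript in place of all exons, Runx1 stood at 92.6 and Irx4 at 49.4 CPM per kilobase, Nfib at 47.1, Trp63 at 20.8 and Tbx3 at 17.9, so that the order within the pairs Irx4 and Runx1, Tbx3 and Trp63, and Sox9 and Sox10 turned.

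Levels of some of the genes also differed between runs. In a test of the 3 run terms beside the phase, 3 of the 9 tested genes were called, against 35.6% of all tested genes. The count is near that share, so differing between runs is not particular to these genes. Sox9 had a mean of 596 CPM in run 1 and 650.3 CPM in run 2, but 417 CPM in run 3 and 399 CPM in run 4, so that the highest run was 1.63 times the lowest (adjusted p = 0.000516). Runx1 was 684 CPM in run 3 and 483 to 517 CPM in the other runs (adjusted p = 0.0245). Trp63 was 133 CPM in run 2, 89.8 CPM in run 3 and 112 to 113 CPM in the others (adjusted p = 0.0470). In 9 other settings the adjusted p of Sox9 stayed under 0.05, from 1.09e-06 to 0.00280. That of Trp63 was over 0.05 in 6 of them, including 0.0565, 0.171 and 0.482 without runs 1, 2 and 3. That of Runx1 rose to 0.936 without run 3, to 0.0543 without run 1 and to 0.105 without a filter on low counts.

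**Figure D3:**
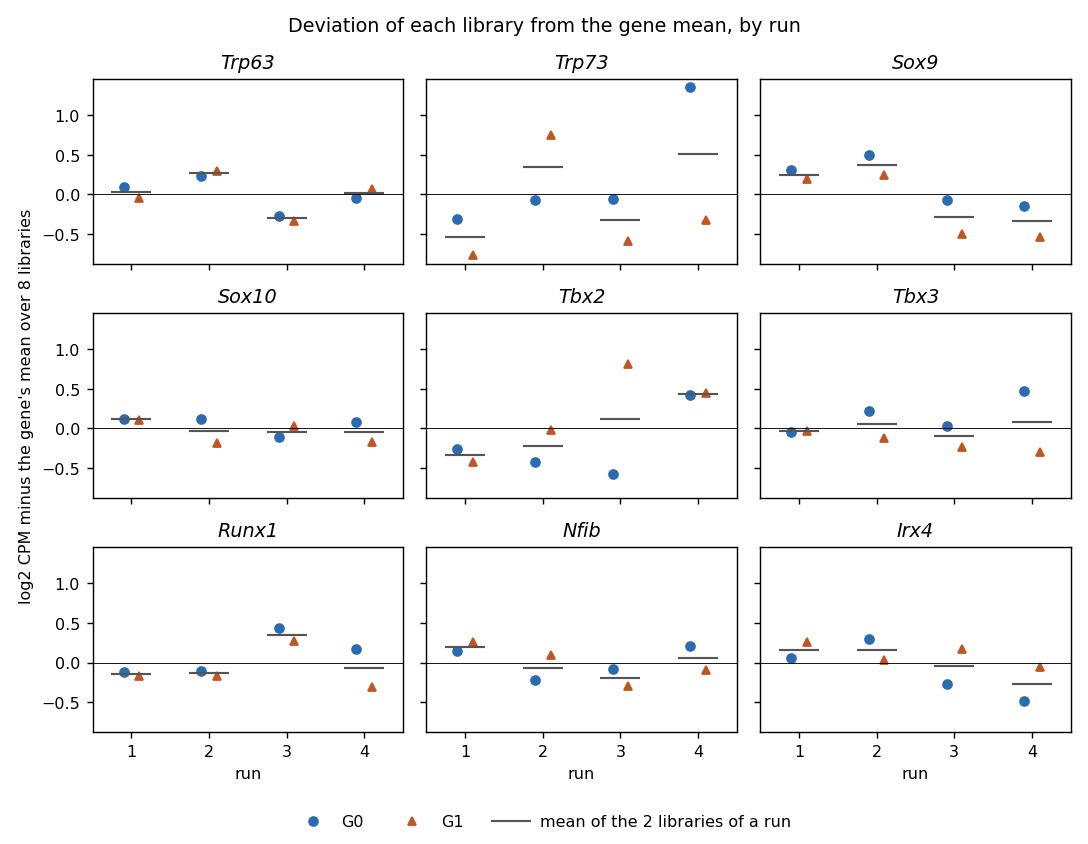
Log2 CPM of each library minus the gene's mean over 8 libraries (y axis) by run, for the 9 tested genes; circles are G0, triangles G1 and bars the mean of a run's 2 libraries. Both Sox9 libraries of runs 1 and 2 lie above the gene mean and those of runs 3 and 4 below it, and both Runx1 libraries of run 3 lie above it.

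Markers of other cells moved with the runs too. Luminal markers summed to 2968 and 2634 CPM in the G0 and G1 libraries of run 3, where Runx1 was highest and Trp63 lowest, against 1481 to 2113 CPM in the other 6 libraries. Fibroblast markers, a list of 8, summed to 904 and 609 CPM in run 3 and to 208 to 445 CPM elsewhere. The basal list had the lowest sum of each phase in run 3, with 23232 CPM in its G0 library and 32229 CPM in its G1 library. That G1 sum was still above those of all G0 libraries, which reached 30483 CPM at most. Their part in the differences between runs was not tested.

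For each gene the 3 genes with the most similar levels over the 8 libraries were found among 9376 to 9377 tested genes whose log2 CPM averaged 3 or more, by Pearson's r, as a description. The libraries come from 4 runs and differ in depth, so the points are not independent. The highest r among so many genes over 8 libraries is also large by selection alone, so no link between genes is read from these values. Trp63 was most like Zfp869, Fez2 and Srpr (r = 0.987, 0.984 and 0.983). Runx1 was most like Tle4, a Groucho co-repressor that RUNX proteins recruit, Klf4 and Elf2 (r = 0.980, 0.979 and 0.977), and Tle4 too was highest in run 3, where its G0 library held 37.0 CPM and its G1 library 31.7 CPM. Sox9 was most like Ahnak2, Add3 and the forkhead factor gene Foxo1 (r = 0.972, 0.964 and 0.960). Sox10 was nearest to Gigyf1, Zswim8 and Arhgef40 (r = 0.968, 0.961 and 0.958), Nfib to S100pbp, Eif4g2 and Fam120a (r = 0.984, 0.967 and 0.956), and Irx4 to Setd6, Fam207a and Med20 (r = 0.989, 0.975 and 0.967). For Tbx2 they were Isg20l2, Cenpo and Pgm5 (r = 0.965, 0.949 and 0.914), for Tbx3 Brpf1, Sema4d and Mapre3 (r = 0.949, 0.933 and 0.922), and for Trp73 Tnik, Bclaf1 and Pds5a (r = 0.972, 0.940 and 0.939). Trp73 was below the level minimum and so could not be a neighbour of another gene. None of the 9 was among the nearest 3 of another, which says little where 3 are taken from 9376 or 9377 genes. Between them, the most opposed pairs were Trp63 with Runx1 (r = -0.78), Sox9 with Tbx2 (r = -0.78) and Trp73 with Irx4 (r = -0.70). The most alike were Trp73 with Tbx3 (r = 0.64) and Trp63 with Sox9 (r = 0.61), all over the same 8 libraries.

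Genes known as p63 targets in basal or stratified epithelium were read next. Of 21, all tested, 0 were called higher and 1 lower with the run as a block, against 0.481% and 0.764% of all tested genes. With the phase alone 0 were called, against 0%. The same shares of all tested genes apply to the other lists below. The median log2 fold change of the targets was -0.04, against 0.01 over all tested genes, with 9 positive and 12 negative. The called gene was Fgfr3, a receptor for fibroblast growth factors. It stood at 129.8, 138, 93.2 and 72.5 CPM in the G0 libraries of runs 1 to 4 and at 73.8, 67.4, 68.2 and 56.3 CPM in the G1 libraries. G1 was lower in each run, and only the G0 library of run 4 lay within the range of the G1 libraries. Its log2 fold change was -0.68 ± 0.13 (adjusted p = 0.00460), and it was called in all 9 other settings of that fit, at adjusted p from 0.000358 to 0.0490. Jag1, a Notch ligand, gave -0.32 ± 0.11 (adjusted p = 0.196) and Perp, a desmosome protein, 0.28 ± 0.11 (adjusted p = 0.239). Of the 21 targets, 13 were called between runs, as were 3 of the 9 factors, against the same 35.6% of all tested genes.

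p53 and 12 proteins that bind, modify or degrade p53 family members were all tested. With the run as a block 0 of 13 were called, the median was 0.05, and 7 were positive and 6 negative. Ppp1r13l, the inhibitory ASPP protein iASPP that binds p53 and p63, had the smallest p of them. Its value was -0.33 ± 0.14 on the log2 scale (adjusted p = 0.339), and it was lower in G1 in 4 of 4 runs.

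Of 11 other SOX genes 9 were tested, 0 were called, and all 9 had a negative log2 fold change, with a median of -0.39. The largest was that of Sox17, a factor of endothelial cells, at -1.73 ± 0.45 (adjusted p = 0.170). Sox17 stood at 17.9, 31.5, 10.2 and 8.4 CPM in the G0 libraries of runs 1 to 4 and at 2.41, 5.29, 8.68 and 3.88 CPM in the G1 libraries. Its call depended on the setting, since the adjusted p was 0.00363 without run 1, 1.74e-09 without run 3, 0.0471 with limma-voom and 4.30e-09 without a filter on low counts. Sox7, of the same endothelial group, gave -0.67 ± 0.21 (adjusted p = 0.138, and 0.0482 without run 1). The endothelial markers given above were lower in G1 with a median log2 fold change of -1.83, and their part in the SOX values was not tested. Sox4 stood at 2035 and 1826 CPM in the G0 and G1 libraries of run 3, against 595 to 1025 CPM in the other 6.

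The partners and relatives of Runx1, Nfib and Irx4 also held 0 called genes between phases. Of 7 RUNX genes, Cbfb and Groucho co-repressors 6 were tested, all with a negative log2 fold change and a median of -0.15. The 3 other nuclear factor I genes ranged from -0.15 to 0.04. The 4 tested Iroquois genes Irx1, Irx2, Irx3 and Irx5 ranged from -0.16 to 0.02. All 4 were called between runs (adjusted p from 2.07e-07 to 4.40e-05), against 35.6% of all tested genes, where Irx4 was not (adjusted p = 0.137). Whether Irx4 differs from them in this was not tested. With Irx6 and Barx1 they summed to 477 and 511 CPM in the G0 and G1 libraries of run 3 and to 206 to 312 CPM elsewhere, the same run in which luminal markers were highest.

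**Figure D4:**
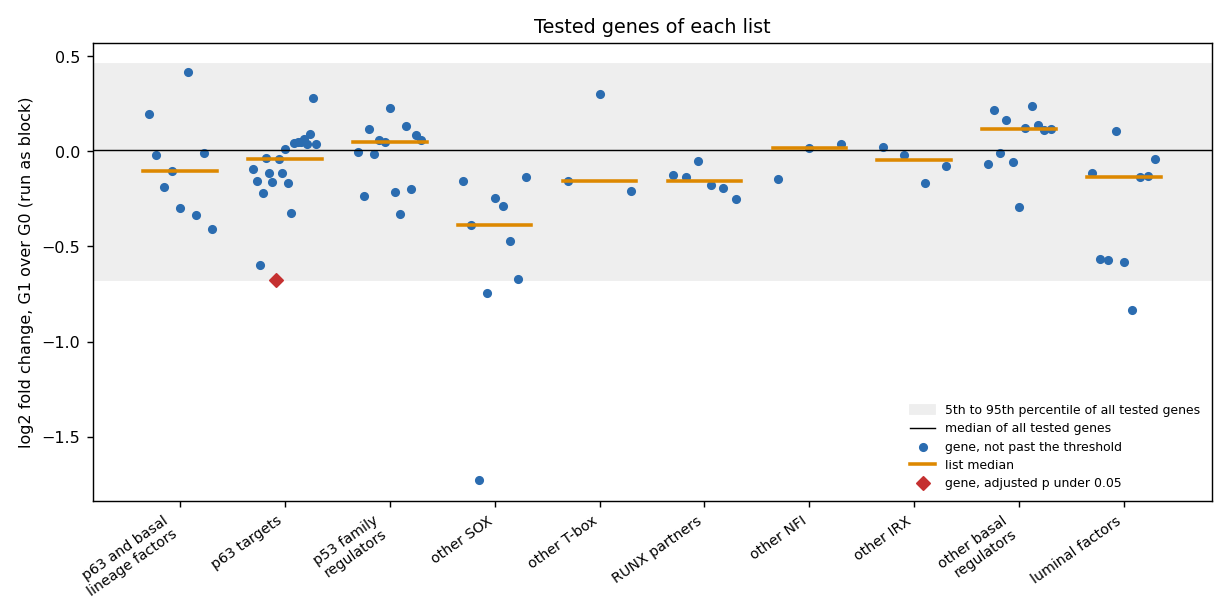
Log2 fold change of G1 over G0 with the run as a block (y axis) for the tested genes of each list, with the list median (bar) and the band from the 5th to the 95th percentile of all tested genes, -0.67 to 0.46. Fgfr3, the diamond among the p63 targets, is the single gene of these lists past the threshold, and the 9 other SOX genes all lie below 0.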

How the data were processed

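The authors deposited 1 table of raw counts, whole numbers of reads per Ensembl gene with 1 column per library and no normalization. Per the labels' protocols, stranded libraries were built from oligo-dT selected RNA and sequenced as paired ends. Trimmomatic 0.35, STAR 2.5.2a and mm10 are named in the submitters' processing notes, while no source used here names the counting program, how it treated strand, or the annotation. Symbols and positions come from GENCODE M21 on GRCm38, and 54722 of 54837 identifiers matched. Libraries were grouped by the phase and run in their titles. Within a phase, pairs of libraries gave a chi-square of 21.7 to 95.1 for each degree of freedom, where sampling noise gives about 1, so none was taken for a copy.

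Genes were filtered with filterByExpr by group and fitted with edgeR 4.0.16 in R 4.3.3 (quasi-likelihood, robust, TMM, two-sided), with the phase alone in the main model. Deviations from the phase mean correlated between the 2 libraries of a run at 0.668, 0.470, 0.638 and 0.437 for runs 1 to 4, and at 0.097 at most between runs, so the run number was taken to pair them and the fit with the run as a block is printed beside it. Standard errors were derived from F, and intervals are at 95%. Log2 ratios within runs used a prior count of 2. Alternatives were DESeq2 1.42.0, limma-voom (limma 3.58.1), RLE factors, offsets for transcript length and GC content, other low-count filters (none, or 10 counts in every library), and each library or run left out. The tests were tried on simulated counts.

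The 10 genes and all lists were chosen with earlier results of these data known. Named from each list were the 3 genes with the smallest p in the blocked fit and any called gene, though not all of these are printed, and, for each of the 10 genes, the 3 with the highest Pearson's r. The genes named for their differences between runs, Krt5, Krt14, Dcn, Tbx1, the called fibroblast and basal markers, the leukocyte markers and the melanocyte genes lie outside the rule. They were named with their values known. The values of some marker genes are not reported here.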

Additional observations from a re-analysis of the deposited data

Results flagged for a closer look

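A library far from the other 3 of its phase was looked for in 44 groups of 4 values, and 5 were found; chance gives about 1 in 20. Trp73 stood at 4.29 CPM in the G0 library of run 4 and at 1.36 to 1.63 CPM in the other G0 libraries. Barx2 stood at 1.97 CPM in that same library and at 0.358 to 0.565 CPM in the others. That library had counts on the most genes, 39094. Jag1 stood at 181 CPM in the G0 library of run 1 and at 131 to 138 CPM in the others. Sox7 stood at 8.71 CPM in that library, against 14.8 to 15.9 CPM. Tle4 stood at 31.7 CPM in the G1 library of run 3 and at 16.6 to 17.6 CPM in the other G1 libraries, and its highest G0 value, 37.0 CPM, was in run 3 as well.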

How the results depend on the processing

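No setting called any of the 9 tested genes between phases: of 214 refits of their log2 fold changes 194 kept the direction, 20 turned it and 0 passed the threshold, the lowest adjusted p being 0.101 (Tbx2). The turns were in Trp63, Nfib, Trp73 and Sox10, whose main values lay within their errors of 0. With the phase alone, Trp63 went to 0.036 without the low-count filter, to 0.083 with the replicate block and offsets for length and GC, and to between -0.10 and 0.10 with a library left out. Nfib likewise went to 0.032 and 0.13, and to between -0.11 and 0.074 with a library left out. Trp73 ranged from -0.91 to 0.047 (without the G0 library of run 4), Sox10 was 0.014 with the block and offsets, and Sox4 ranged from -0.68 to 0.19 (without the G1 and the G0 library of run 3). With the replicate block, Trp63 and Nfib were 0.035 and 0.022 without the filter, and ranged from -0.059 to 0.042 and from -0.13 to 0.062 with a run left out.

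Over all genes, the phase alone called 0 higher and 0 lower (156 and 269 at an unadjusted p under 0.05), as did limma-voom and each fit without 1 library. DESeq2 called 10 and 24, edgeR without the filter 14 and 73, the replicate block 73 and 116, and the block with offsets 201 and 135. Blocked calls were 126 and 184 without the filter, and 21 to 99 higher and 76 to 175 lower with a run left out, the fewest higher and lower without run 4 and the most lower without run 1. The 1 p63 target called lower with the block was called with offsets as well (1). Without the filter 1 other SOX gene (Sox17) and 1 T-box gene (Tbx1) were called lower, with or without the block. With the block, limma-voom called 1 other SOX gene, and leaving out a run called 0 to 2. Between runs, 5411 genes were called, 2231 to 5379 with a run left out (fewest without run 3), and of the 9 genes 3, or 1 without the filter and 1 to 3 with a run left out. The similarity values, recomputed with RLE factors and without each library after the data were seen, were 0.802 or more. The cause of these changes was not tested. Trp73 and Barx2 had too few counts to show less than large changes.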

Other observations

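Transcription factors of luminal cells, a list of 11, were measured in the same libraries. Of 9 tested, 0 were called with the run as a block, 8 had a negative log2 fold change, and the median was -0.14. Esr1, the estrogen receptor of hormone-sensing luminal cells, stood at 9.07, 12.4, 17.2 and 18 CPM in the G0 libraries of runs 1 to 4 and at 9.85, 9.20, 6.13 and 12.2 CPM in the G1 libraries. It gave a log2 fold change of -0.58 ± 0.23 (adjusted p = 0.264). Foxa1, which opens chromatin for that receptor, gave -0.84 ± 0.38 (adjusted p = 0.369) and was lower in G1 in 3 of 4 runs.

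Other regulators of basal or myoepithelial cells numbered 11 tested genes, with 0 called, 7 positive and a median log2 fold change of 0.12. Srf, which drives smooth muscle genes with its cofactors, gave 0.24 ± 0.13 (adjusted p = 0.507). Id4, an inhibitor of basic helix-loop-helix factors in basal cells, was higher in G1 in 4 of 4 runs at 0.22 ± 0.11 (adjusted p = 0.422), and it was called between runs (adjusted p = 0.00330), as was Snai2 (adjusted p = 4.58e-05). Of 13 other T-box genes only 3 were abundant enough to test, and 0 were called.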
